A study of Mus musculus with 12 samples.

Results

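The Mir-34 family holds the microRNAs (miRNAs) miR-34a, miR-34b, miR-34c and miR-449a, which share a seed, the bases that pair with target mRNAs. Its members were taken by name as every mature arm of the Mir-34 family in the table, which gave 6 of 513 arms, and all 6 passed the filter on low values. Row names follow MirGeneDB, where Mir-34-P1 is miR-34a, Mir-34-P2a is miR-34b, Mir-34-P2b is miR-34c and Mir-34-P3a is miR-449a. The ending 5p or 3p names the strand of the hairpin, and an asterisk marks the passenger arm, the strand usually degraded. These equivalents come from the nomenclature and not from the deposited table. Small RNA libraries came from the hippocampi of 12 wild-type male C57BL/6J mice to ask whether a grandfather's exercise is associated with the miRNAs of his grandsons. The exercised lineage comprised 6 F2 mice, grandsons in the male line of exercised founders, and the sedentary lineage comprised 6 F2 grandsons of founders kept sedentary. Exercise is recorded for the grandfathers alone, and no age is labelled. Each library is numbered as its own mouse, and whether any mice shared a litter or a grandfather is not given in the sources used here.

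miR-34a is a transcriptional target of the tumour suppressor p53 and represses cell cycle and survival genes in many cell types, neurons among them. miR-34b and miR-34c are processed from one shared transcript, and together with miR-449 they are best known from cells with many motile cilia, where they are needed to build the cilia. In the brain, cells with many cilia line the ventricles as ependyma and cover the choroid plexus, the tissue that secretes cerebrospinal fluid.

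Libraries held 6862623 to 10219856 reads on the 513 arms. Levels are normalized counts, in which each library's reads were divided by its own size factor, with no scaling for length, since mature arms are of nearly equal length. No family arm was listed at 0 in any library. In the comparison of the lineages with limma, 0 of 474 tested arms were called at an adjusted p below 0.05 and 34 were at an unadjusted p below 0.05. Submitter codes fall into 4 sets of 3 libraries by their first characters, namely R31 and R41 (exercised lineage) and S11 and S41 (sedentary lineage). The labels do not say what these sets stand for, and if they mark related mice the p-values below may be too small.

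RefSeq (GRCm38.p6) gave a mature sequence for 5 of the 6 arms, and none is printed for Mir-34-P2b_5p. The 5p arms are shown because they carry the shared seed, here in capitals (bases 2 to 8), and the 3p arms because they carry another one.
Mir-34-P1_5p: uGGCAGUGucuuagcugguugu
Mir-34-P2a_5p: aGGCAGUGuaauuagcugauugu
Mir-34-P3a_5p: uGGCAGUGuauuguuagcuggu
Mir-34-P2a_3p*: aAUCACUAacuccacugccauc
Mir-34-P2b_3p*: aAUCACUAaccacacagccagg

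The 3 printed 5p arms had the seed GGCAGUG in common and were identical from base 2 to base 9. Beyond the seed they differed: compared without gaps from the 5′ end over 22 bases, Mir-34-P1_5p matched Mir-34-P3a_5p at 15 and Mir-34-P2a_5p at 11, and the latter pair matched at 10. The 2 passenger arms of the Mir-34-P2 pair shared the seed AUCACUA and matched at 17 of 22 bases. Reads of the 3 printed 5p arms can therefore be told apart by their sequence after base 9. Mir-34-P2b_5p, whose level exceeded that of Mir-34-P2a_5p by a median of 200-fold, could not be compared without its sequence. Whether any of its reads were counted as Mir-34-P2a_5p was not tested.

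The paralogues lie at 3 places in the genome (mm10, GENCODE M21 annotation). Mir-34-P1 is encoded on the plus strand of chromosome 4 (hairpin 150068454 to 150068555, mature 5p arm chr4:150068473-150068494). This hairpin overlaps an exon of Gm37795, a gene of unclassified type, and 17 hairpin bases lie within that gene. Mir-34-P2a (chromosome 9, 51103562 to 51103645, 5p arm chr9:51103610-51103632) and Mir-34-P2b (chromosome 9, 51103034 to 51103110) lie on the minus strand with 451 bases between them. Both lie within an intron of Btg4, a gene of the opposite strand. Mir-34-P3a (chromosome 13, 113037534 to 113037624, 5p arm chr13:113037549-113037570) lies on the plus strand in an intron of Cdc20b, which is transcribed from the same strand.

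The Mir-34 family was dominated by 1 arm. Mir-34-P2b_5p (miR-34c) made up 93.9% ± 1.73 of the family's counts (SD, n = 12, range 90.1% to 96.5%), and Mir-34-P1_5p (miR-34a) made up 3.49% ± 1.76 (range 1.18% to 7.31%). The remaining arms held 1.37% ± 0.212 for Mir-34-P2a_3p*, 0.617% ± 0.147 for Mir-34-P2b_3p*, 0.495% ± 0.104 for Mir-34-P2a_5p and 0.0985% ± 0.0431 for Mir-34-P3a_5p. The whole family held 0.305% ± 0.138 of all counts, with a range of 0.149% to 0.586% over the libraries.

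Mir-34-P2b_5p ranked 46th of the 513 arms by its mean. In the exercised lineage it stood at 14113 normalized counts in the lowest, 17932 in the median and 38240 in the highest library. In the sedentary lineage the same values were 12460, 24693 and 46233. The lineages overlapped over nearly their whole range, and each held both high and low libraries. The highest values were those of sedentary mouse 2 and exercised mouse 3, and the lowest those of sedentary mouse 6 and exercised mouse 2.

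Mir-34-P1_5p (miR-34a) ranked 186th. Its lowest, median and highest libraries were at 485, 850 and 1378 normalized counts in the exercised lineage. They were at 431, 559 and 1391 in the sedentary lineage. Here too the lineages overlapped, and the highest values, of sedentary mouse 5 and exercised mouse 6, came from other mice than the highest values of Mir-34-P2b_5p. Mir-34-P2b_5p exceeded Mir-34-P1_5p in 12 of 12 libraries, by a median of 29.6-fold (range 12.3 to 81.7), and their ranges did not overlap.

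The other arms of the Mir-34-P2 pair were far lower than Mir-34-P2b_5p. Mir-34-P2a_3p* spanned 193 to 528 normalized counts (median 276) in the exercised and 160 to 658 (median 355) in the sedentary lineage. Mir-34-P2b_3p* spanned 73.7 to 275 (median 99.1) and 86.1 to 352 (median 150). Mir-34-P2a_5p, the guide arm of miR-34b by its name, spanned 75.3 to 220 (median 97.4) and 54.4 to 238 (median 112.003). In each of these 3 arms the lineages overlapped. Mir-34-P3a_5p (miR-449a) was the lowest member, at 13.7 to 28.7 (median 22.3) in the exercised and 11.2 to 26.4 (median 22.3) in the sedentary lineage, which stood for 9 to 31 reads.

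**Figure D1:**
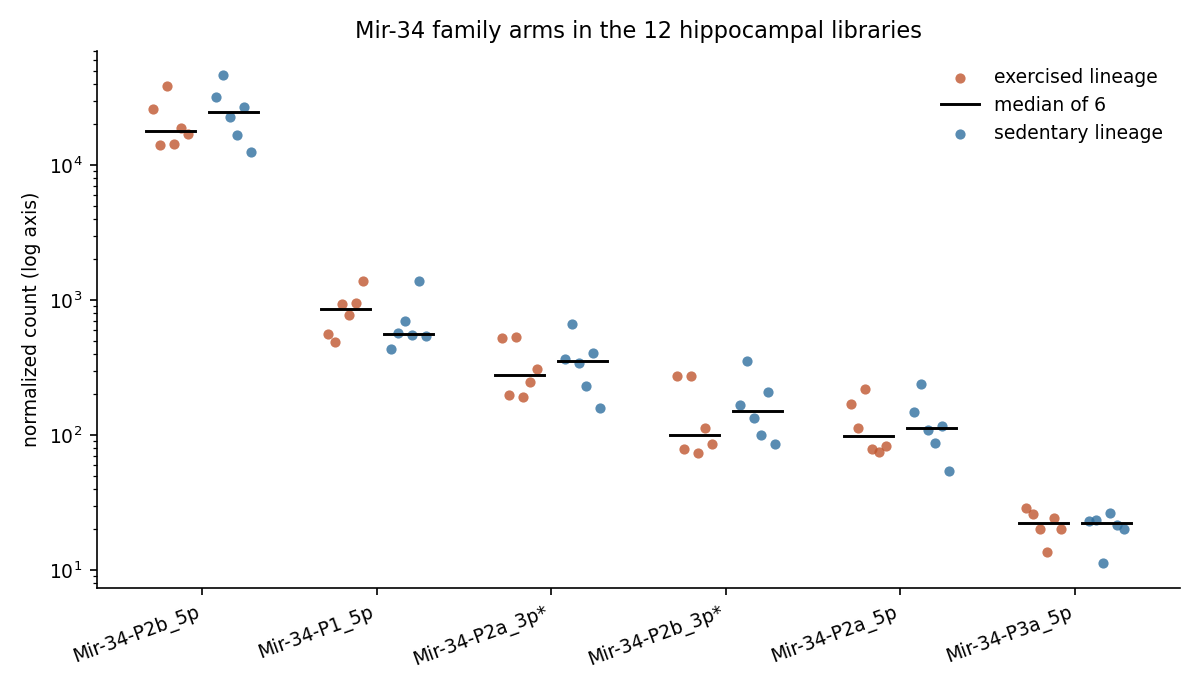
Normalized counts (log axis) of the 6 Mir-34 family arms, ordered by mean, in the 12 libraries. Each point is 1 library and each bar the median of 6. Mir-34-P2b_5p lies at 12460 or more in every library and Mir-34-P1_5p at 1391 or less, while the lineages overlap in every arm.

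Not every step in this order exceeded the spread over the libraries. Mir-34-P1_5p was above Mir-34-P2a_3p* in 11 of 12 libraries (median ratio 2.43, range 0.860 to 4.50), sedentary mouse 2 being the exception, and the ranges overlapped. Mir-34-P2b_3p* and Mir-34-P2a_5p were not separated, with a median ratio of 1.24 (range 0.707 to 1.78) and 10 of 12 libraries in that order. Mir-34-P2a_3p* was above Mir-34-P2b_3p* in 12 of 12 libraries (median ratio 2.20), although their ranges over the libraries overlapped. Mir-34-P2a_5p was above Mir-34-P3a_5p in 12 of 12 libraries by a median of 5.61-fold, with ranges that did not overlap.

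The balance of the arms differed between miR-34b and miR-34c. For miR-34b, the arm marked as passenger was the more abundant one in 12 of 12 libraries, with a median ratio of 3p to 5p of 2.85 (range 1.77 to 3.70). For miR-34c, the 5p arm exceeded the 3p arm by a median of 167-fold (range 95.9 to 198). The log2 ratio of 5p to 3p averaged -1.47 ± 0.29 for Mir-34-P2a and 7.27 ± 0.30 for Mir-34-P2b (SD, n = 12). Between the lineages the ratio of Mir-34-P2a differed by 0.10 (exact permutation test over 924 assignments, two-sided, p = 0.602, adjusted over the 2 ratios 0.851), and that of Mir-34-P2b by 0.03 (p = 0.851, adjusted 0.851).

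Mice differed more in the Mir-34-P1 and Mir-34-P2 arms than in most miRNA arms. The coefficient of variation over the 12 libraries was 44.4% for Mir-34-P2b_5p and 42.8% for Mir-34-P1_5p, where counting error alone gives 0.642% and 3.55%. The median over the 474 tested arms was 19.96%. On the log2 scale the standard deviation was 0.60 for Mir-34-P2b_5p, larger than that of 85.4% of the tested arms, and 0.57 for Mir-34-P1_5p, larger than that of 83.5%. It was 0.65 for Mir-34-P2a_3p*, 0.79 for Mir-34-P2b_3p* and 0.64 for Mir-34-P2a_5p. Mir-34-P3a_5p varied by 23.7%, close to the 21.2% that counting error gives at its depth. The spread of Mir-34-P2b_5p and Mir-34-P1_5p within the lineages (log2 SD 0.62 and 0.57) was not shown to differ, with a difference of variances of 0.06 (exact swap permutation test, two-sided, p = 0.787).

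Between the lineages no family arm passed the test, and the background was also 0: limma called 0% of 474 arms at an adjusted p below 0.05, and 7.17% were at an unadjusted p below 0.05. Of the 6 family arms, 0 were at an unadjusted p below 0.05. Folds are log2 differences of (value + 1), exercised minus sedentary lineage, with limma's standard error and adjusted p. Mir-34-P1_5p had a fold of 0.31 (SE 0.29, 95% confidence interval -0.32 to 0.94, limma adjusted p 0.673), and 1 of 6 exercised-lineage libraries lay below the sedentary median. Mir-34-P2b_5p had a fold of -0.25 (SE 0.32, interval -0.93 to 0.43, limma adjusted p 0.797), with 4 of 6 below the sedentary median. These intervals allow differences of either sign in both paralogues.

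The other members gave folds nearer 0 or wider intervals. Mir-34-P2b_3p* stood at -0.28 (interval -1.17 to 0.61), Mir-34-P2a_3p* at -0.10 (-0.85 to 0.65), Mir-34-P2a_5p at -0.0038 (-0.75 to 0.75) and Mir-34-P3a_5p at 0.09 (-0.46 to 0.63), with limma adjusted p between 0.821 and 0.996. In the family 4 of 6 folds were below 0, against 50.2% of all tested arms, and the family's median was -0.05 against -0.0013 over all arms. Groups that did not overlap were found for 0 of the 6 arms and for 0% of all tested arms. Over all tested arms the interval reached a median of 0.34 to each side. The direction of every member but Mir-34-P1_5p turned when the S11 libraries were left out, and the fold of Mir-34-P1_5p was -0.02 without the R41 libraries.

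**Figure D2:**
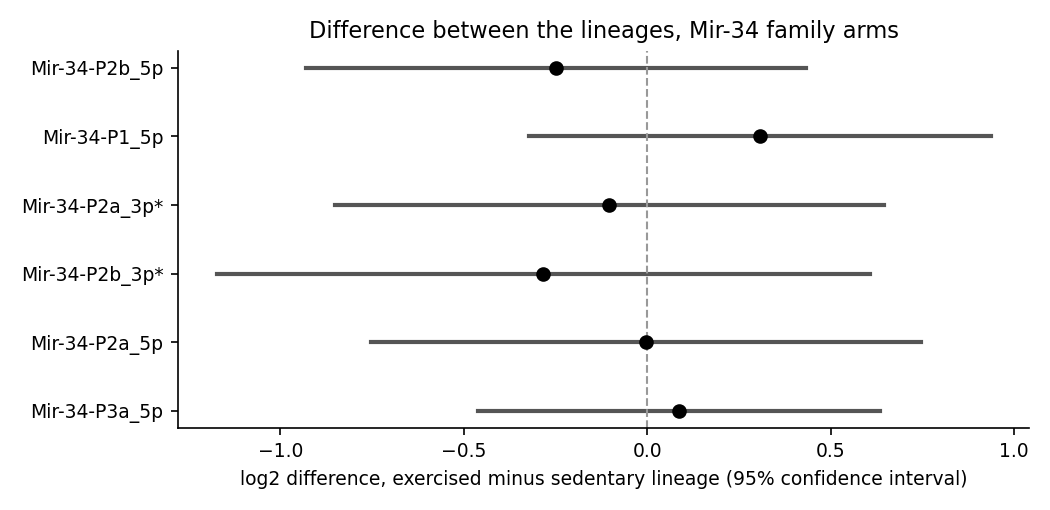
Log2 difference between the lineages (exercised minus sedentary) of the 6 Mir-34 family arms, with points for the limma estimate and lines for its 95% confidence interval. All 6 intervals include 0, from the estimate of 0.31 for Mir-34-P1_5p to -0.28 for Mir-34-P2b_3p*.

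Whether the paralogues differed from each other in their lineage difference was tested on the ratio of Mir-34-P2b_5p to Mir-34-P1_5p. In the exercised lineage the ratio was 46.4, 29.1 and 41 in the R31 libraries and 18.8, 20.02 and 12.3 in the R41 libraries. In the sedentary lineage it was 73.4, 81.7 and 32.1 in the S11 libraries and 30.03, 19.3 and 23.2 in the S41 libraries. The ratios ran high in R31 and S11 and low in R41 and S41, without overlap between the sets of 1 lineage. The log2 ratio averaged 4.65 ± 0.73 over the exercised-lineage and 5.21 ± 0.87 over the sedentary-lineage libraries (SD, n = 6 each), a difference of -0.56 (exact permutation test, two-sided, p = 0.264). Without the R41 libraries that difference was 0.04, and without the S11 libraries 0.08.

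**Figure D3:**
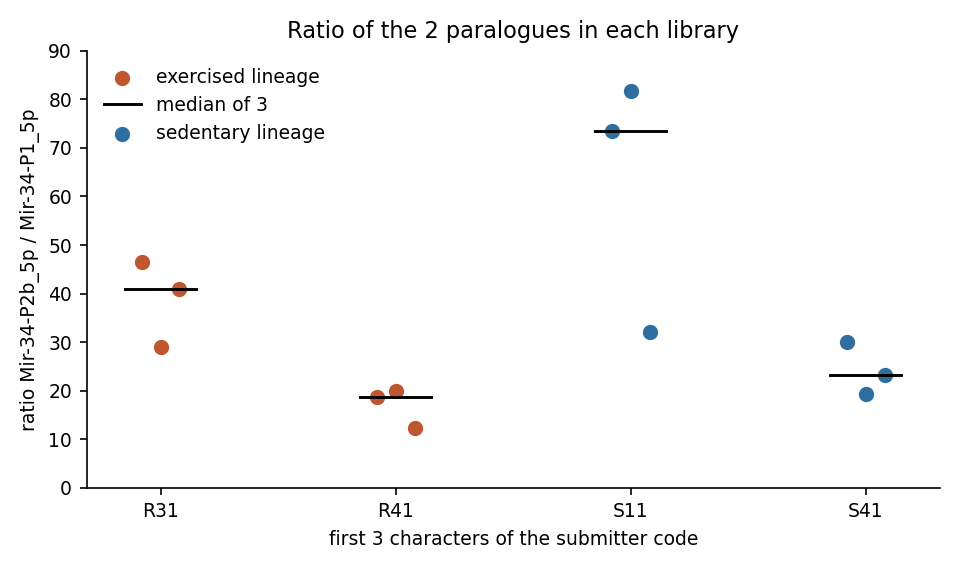
Ratio of Mir-34-P2b_5p to Mir-34-P1_5p in each library (linear axis from 0), by the first characters of the submitter code, with bars for the median of 3. The R31 and S11 libraries lie between 29.1 and 81.7 and the R41 and S41 libraries between 12.3 and 30.03.

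Set means of miR-34c and miR-34a went opposite ways, and for both arms the libraries overlapped between the sets of a lineage. The mean of Mir-34-P2b_5p was 26145 normalized counts in R31 against 16753 in R41, and 33464 in S11 against 18647 in S41. Its libraries spanned 14113.5 to 38240 in R31 and 14393 to 18902 in R41. They spanned 22500 to 46233 in S11 and 12460 to 26887 in S41. The mean of Mir-34-P1_5p was 660 in R31 against 1030 in R41, and 566 in S11 against 827 in S41. The mean of S41 rested on sedentary mouse 5 (1391), since the other S41 libraries, at 553 and 538, lay within the S11 range of 431 to 702. Mir-34-P2a_5p followed miR-34c, with means of 167, 79.1, 165 and 86.0 in R31, R41, S11 and S41. With 3 libraries a set and no stated meaning of the sets, these differences were not tested.

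Over the 12 libraries the arms of the Mir-34-P2 pair varied together, and their pooled correlations with the other paralogues were near 0. The 4 arms of miR-34b and miR-34c correlated with each other at Pearson r from 0.879 to 0.944 (log2 values, n = 12), while Mir-34-P1_5p correlated with them at -0.144 to 0.136. Mir-34-P3a_5p correlated with the 4 arms at 0.145 to 0.266 and with Mir-34-P1_5p at -0.245. At 9 to 31 reads, the 23.7% variation of Mir-34-P3a_5p was close to the 21.2% of counting error. Its r therefore cannot show whether it followed the pair. All these values share the libraries and their size factors.

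In all, 11 relations were tested, with Benjamini-Hochberg adjustment over them. Mir-34-P2a_5p and Mir-34-P2b_5p gave r = 0.906 (permutation p = 5e-05, adjusted 0.000275) and Spearman's rho = 0.825 (permutation p = 0.00155, adjusted 0.00852). It was 0.833 without the 2 libraries farthest from the median, 0.849 in the exercised lineage (n = 6, exact permutation p = 0.0361) and 0.987 in the sedentary lineage (exact permutation p = 0.00278). In the exercised lineage alone, neither this nor any other of the 11 relations passed after adjustment (lowest adjusted exact permutation p 0.0993). Whether reads of Mir-34-P2b_5p counted as Mir-34-P2a_5p contributed to the correlation of these arms was not tested. Mir-34-P1_5p and Mir-34-P2b_5p gave r = 0.0252 (permutation p = 0.935, adjusted 0.935) and rho = 0.231 (permutation p = 0.469, adjusted 0.975), and 0.0738 without the 2 farthest libraries. That value depended on the code sets: with values centred by set r was 0.604 (exact permutation within sets, p = 0.109), without the S11 libraries 0.424 and without the S41 libraries -0.25. Within the lineages they gave r = 0.129 in the exercised (n = 6, exact permutation p = 0.825) and 0.0638 in the sedentary (exact permutation p = 0.899). Mir-34-P2b_5p and Mir-34-P3a_5p gave r = 0.145 (permutation p = 0.658, adjusted 0.935) and rho = 0.126 (permutation p = 0.698, adjusted 0.975). That pair gave 0.12 without the 2 farthest libraries, 0.239 in the exercised (n = 6, exact permutation p = 0.628) and 0.131 in the sedentary lineage (exact permutation p = 0.796).

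Abundant miRNAs of the choroid plexus correlated with miR-34c over the 12 libraries, and their pooled correlation with miR-34a was near 0. Mir-1298_5p comes from an intron of Htr2c, a serotonin receptor gene strongly expressed in the choroid plexus, and Mir-204-P1_5p (miR-204) from an intron of Trpm3, also strongly expressed there. Mir-34-P2b_5p correlated with Mir-1298_5p at r = 0.911 (permutation p = 5e-05, adjusted 0.000275) and rho = 0.881 (permutation p = 0.00038, adjusted 0.00418). It gave 0.91 without the 2 farthest libraries, 0.887 in the exercised (n = 6, exact permutation p = 0.0333) and 0.941 in the sedentary lineage (exact permutation p = 0.00278). With Mir-204-P1_5p it gave r = 0.831 (permutation p = 0.00158, adjusted 0.00579) and rho = 0.741 (permutation p = 0.00787, adjusted 0.0289). There the value was 0.819 without the 2 farthest libraries, 0.928 in the exercised (n = 6, exact permutation p = 0.0236) and 0.745 in the sedentary lineage (exact permutation p = 0.0875).

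Mir-34-P1_5p gave r = -0.103 with Mir-1298_5p (permutation p = 0.743, adjusted 0.935) and -0.0861 with Mir-204-P1_5p (permutation p = 0.783, adjusted 0.935), with rho of 0.049 (permutation p = 0.886, adjusted 0.975) and -0.0769 (permutation p = 0.818, adjusted 0.975). Without the 2 farthest libraries these r were -0.0374 and -0.129. They were -0.328 and -0.191 in the exercised lineage (n = 6, exact permutation p = 0.508 and 0.721) and 0.127 and 0.204 in the sedentary lineage (exact permutation p = 0.879 and 0.713). Centred by code set they were 0.499 and 0.534 (exact permutation within sets, p = 0.292 and 0.252). The difference between the paralogues was tested by swapping their standardized values within libraries (4096 swaps, two-sided), a test added after these correlations were seen. It was run only for these 2 arms, already seen to contrast, and the adjustment covers them alone. Its p-values are therefore not independent support for the contrast. The correlation with Mir-1298_5p was higher for Mir-34-P2b_5p by 1.01 (exact permutation p = 0.00635, adjusted 0.0127), and that with Mir-204-P1_5p by 0.917 (exact permutation p = 0.0356, adjusted 0.0356). The second difference missed the threshold when exercised mouse 1, 3, 5 or 6 or sedentary mouse 1 was left out, with exact permutation p between 0.0527 and 0.0762. Both differences missed it without the R31 libraries (0.0977 and 0.121) and without the S11 libraries (0.0938 and 0.160), by exact permutation. With values centred by code set they were 0.385 and 0.225 and missed the threshold (exact permutation p = 0.0547 and 0.273). Within the exercised lineage both had an exact permutation p of 0.0625, and within the sedentary lineage 0.0938 and 0.156 (n = 6 each).

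These relations rested on a division of the libraries. Mir-1298_5p stood at 75649 to 124745 normalized counts in 5 libraries (exercised mice 1 and 3 and sedentary mice 1, 2 and 5) and at 12623 to 40200 in the other 7. The same 5 libraries held the highest values of all 4 Mir-34-P2 arms, without overlap. Mir-34-P2b_5p was at 26083 to 46233 in them and at 12460 to 22500 in the others. Mir-34-P2a_5p was at 116 to 238 against 54.4 to 112.005, Mir-34-P2a_3p* at 368 to 658 against 160 to 342, and Mir-34-P2b_3p* at 167 to 352 against 73.7 to 133. Mir-34-P1_5p was at 431 to 1391 in these 5 libraries and at 485 to 1378 in the others, and Mir-34-P3a_5p also overlapped.

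Within the 7 libraries of low Mir-1298_5p, no relation passed the test. The cut was made on Mir-1298_5p itself after the data were seen, which narrows its range, and 7 libraries give little power. The lack of a pass there therefore does not show that a relation is absent. There Mir-34-P2b_5p correlated with Mir-1298_5p at r = 0.671 (n = 7, exact permutation p = 0.0982), with Mir-204-P1_5p at 0.217 (exact permutation p = 0.632) and with Mir-34-P2a_5p at 0.511 (exact permutation p = 0.24). The pooled correlations therefore include the separation of 5 libraries from 7, and no value was computed within the 5.

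**Figure D4:**
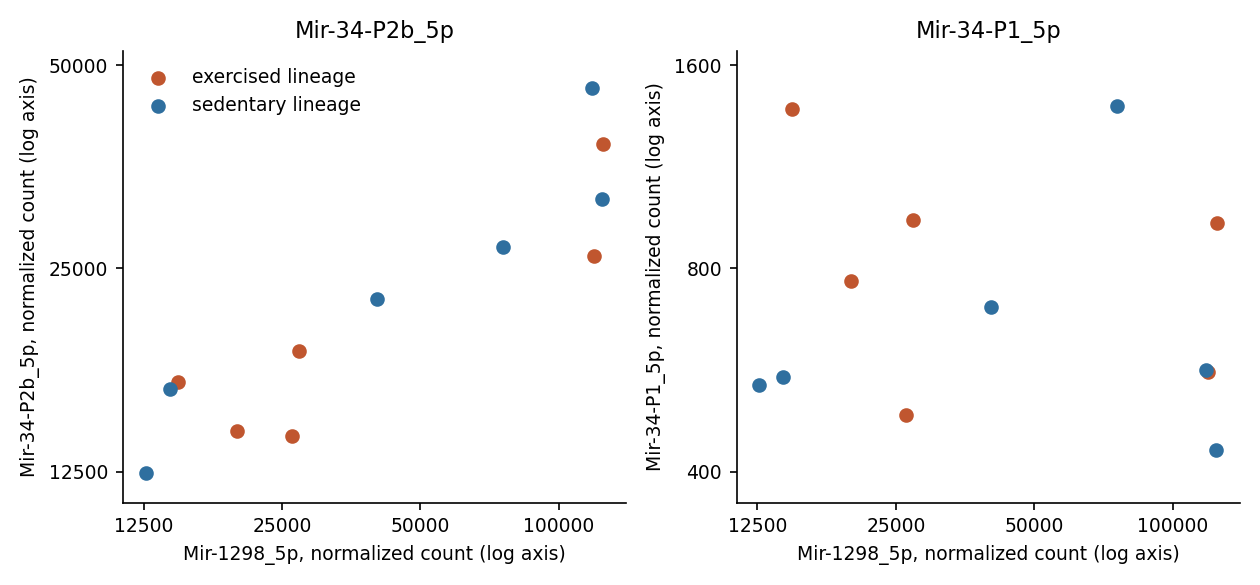
Mir-34-P2b_5p (left) and Mir-34-P1_5p (right) against Mir-1298_5p, in normalized counts on log axes, with 1 point per library and colours for the lineages. The 5 libraries at or above 75649 of Mir-1298_5p hold the 5 highest values of Mir-34-P2b_5p but span 431 to 1391 of Mir-34-P1_5p.

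The wider list of choroid plexus and ependyma miRNAs was described in the same way, with no test. It held 10 tested arms, of which 8 correlated with Mir-34-P2b_5p above 0.6, with a median r of 0.873. Over the 468 tested arms outside the family, 15 correlated above 0.6 and the median was -0.0388. With Mir-34-P1_5p, 0 of the 10 exceeded 0.6, the median was -0.0972, and the median over the 468 arms was 0.00779. The members below 0.6 with Mir-34-P2b_5p were Mir-95-P2_3p (r = -0.374) and Mir-448_5p*, the only one listed at 0 in a library (r = 0.471). The summed level of the list was 30817 to 165287 normalized counts in the exercised (median 44222) and 29644 to 166045 in the sedentary lineage (median 88899), a 5.60-fold range. The 16 arms of the neuronal list, none listed at 0, summed to 575254 to 848786 over all libraries, a 1.48-fold range. Both sums mostly follow the most abundant arms of their lists. Mir-124_3p, a far lower neuronal arm, ran from 26668 in sedentary mouse 3 to 72090 in exercised mouse 1. The range of the neuronal sum therefore does not show that its single arms were stable.

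Between the lineages, 9 of the 10 arms of the list had folds below 0 (background 50.2%), with a median of -0.22, and limma called 0. The 10 arms are not independent, in this count or in that of the correlations. Mir-1298, Mir-448 and Mir-1912 all lie in introns of Htr2c, and several arms are opposite arms of the same hairpin. No position is given here for Mir-95-P4, so whether its arms are independent of these was not tested. How far the amount of choroid plexus or ependyma in a sample contributed to the levels of miR-34b and miR-34c was not tested. In these whole-tissue samples, fewer cells of a type and less RNA per cell cannot be told apart.

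**Figure D5:**
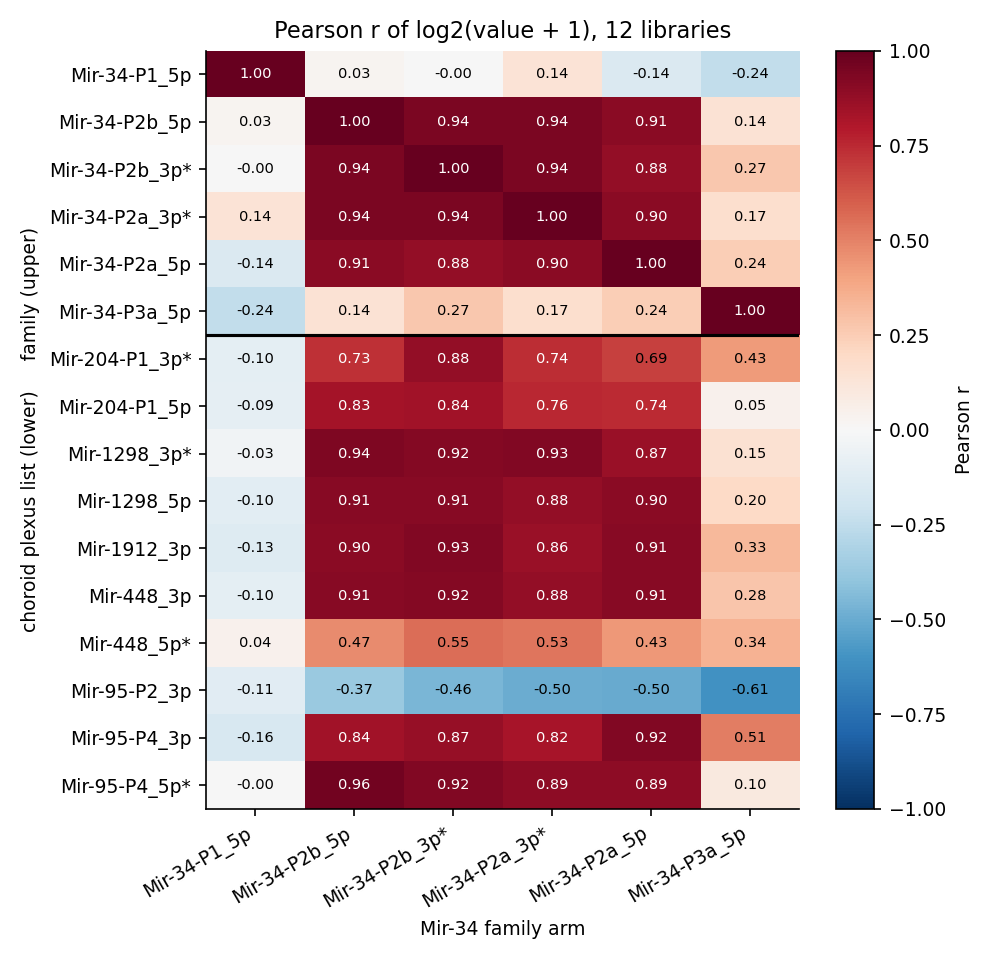
Pearson r over the 12 libraries between the Mir-34 family arms (columns) and, in rows, the family itself (upper) and the 10 arms of the choroid plexus and ependyma list (lower). The 4 Mir-34-P2 columns hold r of 0.88 or more among themselves, and the Mir-34-P1_5p column lies between -0.24 and 0.14 apart from its own value of 1.

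Lists of other cell types tracked neither paralogue to that extent. For the 16 neuronal arms the median r was -0.0926 with Mir-34-P2b_5p and -0.0281 with Mir-34-P1_5p. Mir-124_3p, the most used neuronal marker, gave r = -0.0568 with Mir-34-P2b_5p (permutation p = 0.864, adjusted 0.935) and -0.0941 with Mir-34-P1_5p (permutation p = 0.778, adjusted 0.935). Their rho were -0.0909 (permutation p = 0.782, adjusted 0.975) and 0 (permutation p = 1, adjusted 1), and r without the 2 farthest libraries 0.00689 and -0.21. Within the exercised lineage r was 0.0233 and -0.417, and within the sedentary lineage 0.0921 and -0.106 (n = 6, exact permutation p from 0.419 to 0.954). For 10 arms of other epithelia and sensory cells the median r was 0.0722 with Mir-34-P2b_5p and 0.514 with Mir-34-P1_5p. Their abundant member Mir-8-P1a_3p (miR-200b) gave r = 0.53 with Mir-34-P1_5p (permutation p = 0.0716, adjusted 0.197) and 0.159 with Mir-34-P2b_5p (permutation p = 0.649, adjusted 0.935). Their rho were 0.455 (permutation p = 0.141, adjusted 0.388) and 0.161 (permutation p = 0.617, adjusted 0.975), and r without the 2 farthest libraries 0.189 and 0.2. Within lineages the r with Mir-34-P2b_5p was -0.873 for exercised and 0.413 for sedentary (n = 6 each, exact permutation p = 0.0208 and 0.408). The r with Mir-34-P1_5p was 0.173 without sedentary mouse 5, the library highest in both, and -0.498 in the exercised against 0.885 in the sedentary lineage (n = 6, exact permutation p = 0.324 and 0.0403).

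The arms whose pattern was most like that of each paralogue were different ones. For Mir-34-P2b_5p the 5 highest correlations among the 468 arms over the 12 libraries were with Mir-95-P4_5p* (0.963), Mir-1298_3p* (0.936), Mir-1298_5p (0.911), Mir-448_3p (0.91) and Mir-1912_3p (0.903). Mir-1298, Mir-448 and Mir-1912 all lie in introns of Htr2c on chromosome X, and no position is given here for Mir-95-P4. For Mir-34-P1_5p they were with Mir-1251_5p (0.876), Mir-135-P3_5p (0.866), the shared 5p arm of Mir-135-P1 and Mir-135-P2 (0.834), the shared 3p arm of the Mir-1 genes (0.788) and Mir-384_3p (0.778). Mir-1251 (chromosome 10, 92137140 to 92137223) and Mir-135-P2 (92072086 to 92072185) both lie in introns of Rmst, a long noncoding RNA gene. For Mir-34-P3a_5p they were with Mir-378_5p* (0.837), the 5p arm of Mir-142 (0.769), Mir-130-P1a_3p (0.758), Mir-674_5p (0.746) and Mir-33-P1_5p (0.745). These are the highest of many values and are given as descriptions, and those of Mir-34-P3a_5p rest on 9 to 31 reads a library.

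The other miRNAs linked to p53 gave no call either. The list held miR-192, miR-194, miR-143 and miR-145 with 8 tested arms, of which 2 had folds above 0 and 6 below (background 50.2% below), with a median of -0.15 (range -0.25 to 0.20), and limma called 0. Mir-34-P1_5p, the family's best known p53 target, had a fold of 0.31. The arms of miR-143 and miR-145 also stand in the list of endothelium and mural cells. The median correlation of the 8 arms was 0.237 with Mir-34-P1_5p and -0.366 with Mir-34-P2b_5p.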

How the data were processed

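The deposited values are a signal, in which the reads of every mature arm had been divided by a library's size factor. The submitters' processing notes name Bowtie 1.3.0, mm10 and DESeq2. Trimming, mismatches and multi-mapping are not described in the labels. In each library 100% of values were whole multiples (within 0.01) of 1 step, and depth is given with that step as 1 read. Libraries were made with a small RNA ligation kit without molecular identifiers, per the labels' protocols, so ratios between arms are ratios of reads, and counting errors cover reads only.

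Groups came from the sample titles. Arms with a mean of at least 10 (474 of 513) were tested with limma 3.58.1 in R 4.3.3 on log2(value + 1), with a mean-variance trend and Benjamini-Hochberg adjustment, which understates differences of low arms. Other tests were exact permutation tests, or 100000 permutations for correlations over 12 libraries (Python 3.11.15, scipy 1.17.1), tested on simulated data. Named arms were all family arms, the 5 arms most correlated with Mir-34-P1_5p, Mir-34-P2b_5p and Mir-34-P3a_5p, and the choroid plexus list, and Mir-8-P1a_3p and Mir-124_3p entered 4 of the 11 relations. Members, lists and tests were chosen with earlier results of these data known. P-values measure the spread between these mice only.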

Additional observations from a re-analysis of the deposited data

Results flagged for a closer look

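Mir-34-P1_5p in the library of sedentary mouse 5 stood apart from the rest of its lineage, at 1391 normalized counts against 431 to 702 in the other 5. The gap to the next library was 0.718 of the lineage's whole range, above the critical value for 6 libraries. This was the 1 such case among 18 lineage groups looked at, and chance gives about 1 in 20. The same library held the highest value of Mir-8-P1a_3p, at 14946. Without it the fold of Mir-34-P1_5p was 0.53 (limma adjusted p 0.592) and its correlation with Mir-8-P1a_3p was 0.173. Its part in these results beyond those values was not tested.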

How the results depend on the processing

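Under every alternative run, limma called 0 arms between the lineages. At an unadjusted p below 0.05 the number was 34, 16 with the replicate block and 16 to 48 over all alternatives. Of the values recomputed under the alternatives, 436 kept their direction and side of the threshold, 77 reversed and 28 lost the threshold. Alternatives added after the data were seen were the centring by code set, the libraries below the gap of Mir-1298_5p, and those of the arm ratios and of the differences of correlations. The planned count tests (edgeR and DESeq2 on whole reads) were not run, and the deposited normalized values were tested with limma alone. A mean of at least 50 removed Mir-34-P3a_5p and gave no value for it.

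Mouse numbers do not pair the samples: same-numbered mice correlated at -0.174 to 0.151, and only mouse 6 correlated best with its own number. With the replicate block the folds were 0.31 for Mir-34-P1_5p and -0.25 for Mir-34-P2b_5p, and the difference in their log2 ratio was -0.56 (exact permutation p = 0.125). Scaling by library totals gave 0.082 for the fold of Mir-34-P2a_5p, moved the median of all arms by about 0.08 and gave r with Mir-124_3p of 0.125 for Mir-34-P1_5p and 0.211 for Mir-34-P2b_5p; upper-quartile scaling gave 0.024 for that fold.

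Leaving out 1 library at a time gave ranges of -0.31 to 0.10 (fold of Mir-34-P2a_3p*), -0.21 to 0.21 (Mir-34-P2a_5p), -0.074 to 0.21 (Mir-34-P3a_5p), -0.0513 to 0.227 (difference of variances), -0.022 to 0.19 and -0.030 to 0.18 (arm ratios of Mir-34-P2a and Mir-34-P2b) and 0.701 to 1.17 (difference of correlations with Mir-204-P1_5p). For r they were -0.0861 to 0.162 (Mir-34-P1_5p with Mir-34-P2b_5p), -0.0096 to 0.251 (Mir-34-P2b_5p with Mir-34-P3a_5p), -0.329 to 0.132, -0.256 to 0.1002 and -0.263 to 0.065 (Mir-34-P1_5p with Mir-204-P1_5p, Mir-1298_5p and Mir-124_3p) and -0.227 to 0.022 (Mir-34-P2b_5p with Mir-124_3p). The folds of Mir-34-P1_5p (0.15 to 0.53) and Mir-34-P2b_5p (-0.44 to -0.06) kept their direction there.

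Leaving out a code set reversed more. Without R41, folds were -0.022 (Mir-34-P1_5p), 0.22 (Mir-34-P2a_3p*), 0.51 (Mir-34-P2a_5p), 0.22 (Mir-34-P2b_3p*) and 0.019 (Mir-34-P2b_5p), the log2 ratio of the paralogues differed by 0.041 and the Mir-34-P2b arm ratio by -0.20. Without S11, folds were 0.31 (Mir-34-P2a_3p*), 0.46 (Mir-34-P2a_5p), 0.068 (Mir-34-P2b_3p*), 0.18 (Mir-34-P2b_5p) and -0.052 (Mir-34-P3a_5p), the log2 ratio differed by 0.084 and the variances by -0.0753. Without R31 the fold of Mir-34-P3a_5p was -0.10 and the Mir-34-P2a arm ratio differed by -0.092; without S41 the Mir-34-P2b arm ratio differed by -0.041. The cause was not tested.

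For Mir-34-P1_5p, r with Mir-34-P2b_5p was -0.157 without R31 and -0.25 without S41, but 0.285 without R41, 0.424 without S11, 0.413 below the gap and 0.604 centred. With Mir-204-P1_5p it was 0.377 without R41, 0.225 without S11, 0.204 within the sedentary lineage and 0.534 centred by code set; with Mir-1298_5p it was 0.241, 0.191, 0.127 and 0.499 in the same order. With Mir-8-P1a_3p it was -0.0106 without S41 and -0.498 within the exercised lineage, and with Mir-124_3p 0.268 without R31 and 0.129 below the gap of Mir-1298_5p.

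For Mir-34-P2b_5p, r with Mir-34-P2a_5p was 0.849 within the exercised lineage, 0.939 centred and 0.511 below the gap. With Mir-204-P1_5p it was 0.774 without R31, 0.928 within the exercised and 0.745 within the sedentary lineage, 0.759 centred and 0.217 below the gap. With Mir-1298_5p it was 0.887 within the exercised lineage, 0.884 centred and 0.671 below the gap. These 11 values missed the adjusted threshold. With Mir-34-P3a_5p it was -0.0126 without R41 and -0.36 below the gap, with Mir-8-P1a_3p -0.323 without S41, -0.873 within the exercised lineage and -0.128 below the gap, and with Mir-124_3p 0.0975 without S11, 0.0233 and 0.0921 within the exercised and sedentary lineages and 0.0549 centred. The difference of correlations with Mir-1298_5p was 1.12 without R31, 0.715 without S11, 0.684 below the gap, 0.385 centred and 1.22 and 0.815 within the exercised and sedentary lineages, and that with Mir-204-P1_5p 1.02, 0.595, 0.501, 0.225, 1.12 and 0.541; these missed the threshold. Depth limits Mir-34-P3a_5p, at 9 to 31 reads.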

Other observations

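Arms of endothelium and mural cells (miR-126, miR-143 and miR-145) had medians below 0 in their correlations with all 4 arms of miR-34b and miR-34c. Over 6 tested arms of that list the median r was -0.592 with Mir-34-P2a_5p (range -0.715 to -0.00874), -0.403 with Mir-34-P2a_3p* (-0.553 to 0.0806), -0.348 with Mir-34-P2b_5p (-0.607 to -0.136) and -0.428 with Mir-34-P2b_3p* (-0.609 to 0.0232). With Mir-34-P1_5p it was 0.255 (-0.073 to 0.676). These are descriptions over 12 libraries. The summed level of the list was 312588 to 693033 normalized counts in the exercised and 339905 to 724817 in the sedentary lineage.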
